A study of Mus musculus with 6 samples.

Results

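The 10 genes described here encode the pyruvate dehydrogenase complex of mitochondria and the enzymes that switch it. They are the rows of the deposited expression table named Pdk1, Pdk2, Pdk3, Pdk4, Pdp1, Pdp2, Pdha1, Pdhb, Dlat and Pdhx. All 10 were found, each in 1 row, among 39174 genes in the table. RNA was sequenced from MLO-Y4, an established mouse line with features of osteocytes, the cells buried in bone matrix. The flow group is 3 cultures that received oscillating flow of 10 dyn/cm² for 2 h in parallel-plate chambers, then new medium for 2 h before lysis. The non-flow control group is 3 sham-handled cultures taken alongside. Replicates were collected on separate days, which the main test leaves out. All 6 cultures were grown on collagen-coated glass in the same serum-containing medium. The study asked which transcripts differ after flow.

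Pyruvate, the end product of glycolysis, can be reduced to lactate in the cytosol or carried into mitochondria and oxidized to acetyl-CoA. The pyruvate dehydrogenase complex carries out that oxidation and commits the carbon to the citric acid cycle. Pyruvate dehydrogenase kinases phosphorylate the alpha subunit of its first enzyme and turn it off, and pyruvate dehydrogenase phosphatases take the phosphate off and turn it on again. The kinase genes are regulated at the transcript level in many tissues: Pdk1 is a known target of the hypoxia-inducible factors, and Pdk4 is known for its induction by fasting and fatty acids in muscle and liver.

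Values are FPKM as the authors deposited them, that is, fragments scaled for transcript length and library depth, so levels of different genes can be set side by side. The depth estimated from the steps between low FPKM values was 5760000 to 19250000 reads in the flow libraries and 17920000 to 19030000 reads in the non-flow controls. Flow libraries 1 and 2, at 11030000 and 5760000 reads, were the shallowest. For a transcript with 1 kb of effective length, 3 reads were worth 0.156 to 0.521 FPKM, a limit that covers counting error only. The limma test used log2(FPKM + 1) and genes averaging 1 FPKM or more, and all 10 members were among the 11957 tested. Of 7 osteocyte markers 3 reached that level. Gja1 and Pdpn were at 357.5 to 503.2 FPKM, whereas Sost, Mepe and Fgf23 were listed at 0 in every library and Dmp1 reached at most 0.0354 FPKM. The 3 endothelial markers summed to at most 0.152 FPKM in flow and 0.0922 FPKM in control libraries, and the myeloid marker Ptprc reached at most 0.0142 FPKM in any library. The myeloid and osteoclast list summed to 167.2 to 208.5 FPKM in flow and 195.9 to 219.1 FPKM in control libraries, nearly all of it Ctsk. The osteoblast markers summed to 116.8 to 178.1 FPKM in flow and 160.1 to 193.1 FPKM in controls, most of it Col1a1. Those of muscle and fat summed to at most 0.985 FPKM in flow and 0.962 FPKM in controls.

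Of the 10 genes, the kinase gene Pdk1 alone had 3 flow values all below the 3 control values, at a mean of 0.431 times the control level. Neither the other 3 kinases, the 2 phosphatases nor the 4 subunits separated the groups. No member passed the test at an adjusted p under 0.05, a threshold that 0.0167% of all tested genes (2 of 11957) passed in limma, and 0.00836% as lower in flow. At an unadjusted p under 0.05 there was 1 of 10 members, Pdk1, against 8.52% of all tested genes in either direction and 4.82% with lower values in flow. Groups without overlap were found for 1 of 10 members, against 15.1% of all tested genes in either direction, 8.0% with all flow values below and 7.12% with all flow values above. These shares are near the background. All log2 fold changes here are differences in log2(FPKM + 1), flow minus non-flow control. They were below 0 for 7 members, against 51.7% of all tested genes, and above 0 for 3. Their median was -0.12, against -0.01 over all tested genes.

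**Figure D1:**
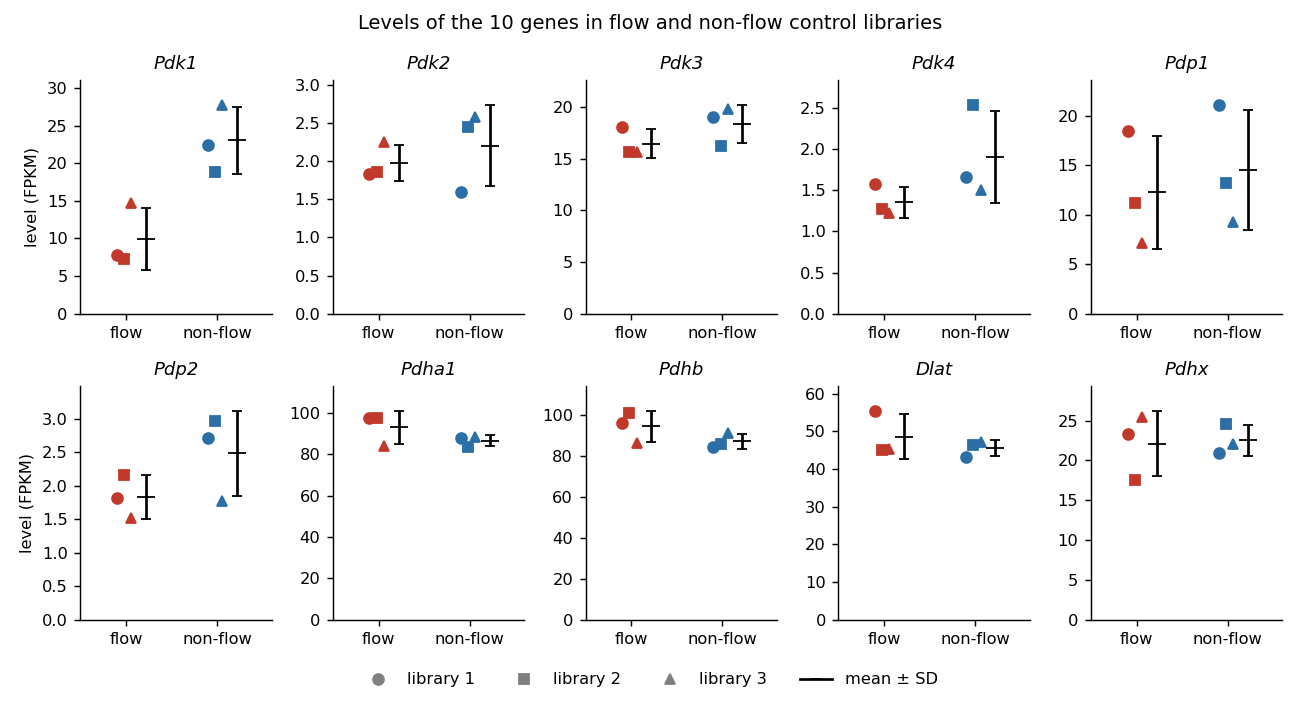
Levels of the 10 genes in FPKM, with 1 panel and a linear axis from 0 per gene. Points are single libraries (3 flow, 3 non-flow control), and the bar beside them is the mean ± SD. The groups are apart only for Pdk1, and the ratio of the highest to the lowest library of a group is largest for Pdp1, at 2.56 in flow and 2.28 in controls.

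Pdk1 (ENSMUSG00000006494), on the plus strand of chromosome 2 at 71873224 to 71903858 of mm10, encodes a kinase that phosphorylates and inactivates the complex. The letters ACGTG and GCGTG, the core to which hypoxia-inducible factors can bind, were searched on both strands in the 250 bases before each RefSeq start (build GRCm38.p6). RefSeq gives 2 starts for Pdk1. The window at the upstream one is shown for Pdk1 and for Pdk3, because these were the most abundant kinase transcripts and their values in flow were unlike. Both are printed 5′ to 3′ on the strand of the gene, with matches on either strand in capitals. The Pdk1 window is chr2:71872974-71873223, and the Pdk3 window is chrX:93832151-93832400 on the minus strand.
Pdk1: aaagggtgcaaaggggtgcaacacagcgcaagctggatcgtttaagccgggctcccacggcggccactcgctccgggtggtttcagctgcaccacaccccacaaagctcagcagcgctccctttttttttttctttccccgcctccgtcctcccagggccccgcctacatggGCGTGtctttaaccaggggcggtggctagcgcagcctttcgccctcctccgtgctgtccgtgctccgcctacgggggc
Pdk3: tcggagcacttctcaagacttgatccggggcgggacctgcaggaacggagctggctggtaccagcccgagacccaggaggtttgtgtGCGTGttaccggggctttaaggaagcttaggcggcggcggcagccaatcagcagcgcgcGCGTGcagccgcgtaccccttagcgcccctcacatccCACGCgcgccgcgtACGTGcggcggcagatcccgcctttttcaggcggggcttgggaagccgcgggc

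The Pdk1 window held 1 match, 78 bases before the start, and the Pdk3 window held 4. The other Pdk1 window held none. Of the 9 members with a RefSeq promoter entry (Pdp1 had none), 8 held at least 1 match in some window, and Dlat held none. The 9 members had 11 windows, and 1 of the Pdk2 windows held no match either. In Pdk2 and Pdp2 the match was the palindrome CACGTG, which counts on both strands. Over all 32851 promoter windows of this length 38.6% held ACGTG or GCGTG and 6.0% held CACGTG. These shares are per window, whereas the 8 of 9 above counts genes, so they are not like for like. Member windows at the starts with matches were 58.8% to 68.4% G and C, and the content of all windows was not measured. A match describes these letters and not binding, and a link between matches and the values in flow was not tested.

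Pdk1 had 7.81, 7.30 and 14.7 FPKM in flow libraries 1 to 3, against 22.5, 18.9 and 27.8 FPKM in non-flow controls 1 to 3. The highest flow value, in library 3, stayed below the lowest control. The means were 9.94 ± 4.13 FPKM in flow and 23.0 ± 4.47 FPKM in controls (SD, n = 3 each). The log2 fold change was -1.18 with SE 0.28 and a 95% interval of -1.86 to -0.51. Lower values in 3 of 3 flow libraries gave an unadjusted p of 0.00491 and rank 65 among the tested genes, but an adjusted p of 0.559 (limma), so the difference did not pass over all genes. In these bulk samples fewer cells with the transcript and less of it per cell cannot be told apart. Depth moved with the value inside the flow group: the 2 shallow libraries had the low Pdk1 values, and library 3, the deepest at 19250000 reads, had the high one. The part of depth in the result was not tested. Without flow library 3 the log2 fold change was -1.47 (adjusted p = 0.0714, limma). With flow library 3 alone against the controls it was -0.60 (adjusted p = 0.936), in a fit where the spread comes from the controls only and the lone flow library is assumed to vary like them. If all its reads fell on its longest annotated transcript, the lowest and the highest Pdk1 level stood for about 210 reads in flow library 2 and 2634 in non-flow control 3.

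**Figure D2:**
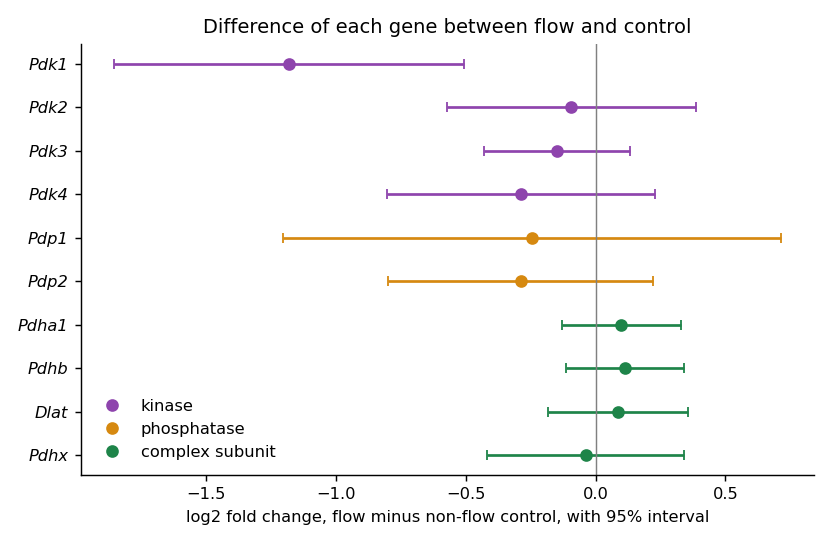
Log2 fold change of each gene on the log2(FPKM + 1) scale, flow minus non-flow control, as points with 95% intervals from limma (3 libraries per group). The interval of Pdk1, from -1.86 to -0.51, is the only one here that leaves out 0, and that of Pdp1, from -1.20 to 0.71, is the widest.

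The other deposited table gave other Pdk1 values in both groups. There Pdk1 had 8.04 FPKM in flow library 1 and 10.0 and 8.96 FPKM in the 2 flow columns whose names match no library title, against 6.51, 16.2 and 30.0 FPKM in non-flow controls 1 to 3. No flow value there was near the 14.7 FPKM of flow library 3 in the tested table. Non-flow control 1 was the lowest of all 6, and the groups overlapped (log2 fold change -0.67, SE 0.49, limma adjusted p = 0.751). That library had a depth of 690000 reads in this table, against 3610000 to 4730000 in the others, and its Pdk1 value stood for about 22 reads. Without it the log2 fold change was -1.21 (SE 0.29, adjusted p = 0.819).

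**Figure D3:**
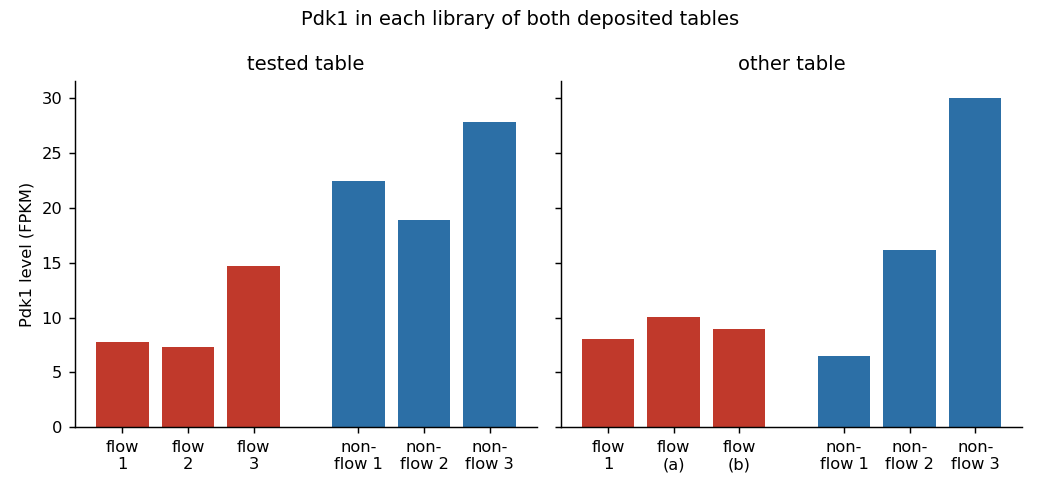
Pdk1 level in FPKM in each library of the tested table (left) and of the other deposited table (right), with flow in red and non-flow control in blue, on the same linear axis. Flow (a) and flow (b) are the columns with no matching library title. In the tested table the flow bars, 7.30 to 14.7, are all below the controls, and in the other table non-flow control 1, at 6.51, is below every flow bar.

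Pdk3 (ENSMUSG00000035232), on the minus strand of chromosome X at 93764607 to 93832201, encodes another of the kinases. It had 18.1, 15.6 and 15.7 FPKM in flow libraries 1 to 3, against 19.1, 16.3 and 19.8 FPKM in the controls. The ranges overlapped through flow library 1, and the spread in each group was narrow. The log2 fold change was -0.15 (SE 0.12, 95% interval -0.43 to 0.13, limma adjusted p = 0.634). The sign turned in the second deposited table (0.25, adjusted p = 0.751).

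Pdk2 and Pdk4 were scarce. Pdk2 (ENSMUSG00000038967, chromosome 11, 95026258 to 95041354, minus strand), a kinase found in most tissues, had 1.83, 1.85 and 2.25 FPKM in flow, against 1.59, 2.44 and 2.58 FPKM in controls. All 3 flow values lay between the lowest and the highest control (log2 fold change -0.09, SE 0.20, 95% interval -0.57 to 0.39). Its sign turned with the GC trend removed (0.09) and in the other table (0.13). There the Pdk2 value of non-flow control 1 stood for about 1 read, and without that library the log2 fold change was -0.22. Pdk4 (ENSMUSG00000019577, chromosome 6, 5483351 to 5496309, minus strand) had 1.57, 1.27 and 1.23 FPKM in flow, against 1.66, 2.54 and 1.505 FPKM in controls. Flow library 1 lay above the lowest control, so the groups overlapped (log2 fold change -0.29, SE 0.21, 95% interval -0.80 to 0.23, limma adjusted p = 0.629). On their longest transcripts these levels stood for about 22 reads of Pdk2 and 24 of Pdk4 in flow library 2, so a moderate difference was not detectable there. Repeat sequence shared with other genes made up 1.43% of the 50-base stretches of Pdk4.

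Kinase transcripts together amounted to 29.3, 26.1 and 33.8 FPKM in flow libraries 1 to 3, against 44.8, 40.1 and 51.6 FPKM in controls. Most of that gap was Pdk1. Pdk1 made up 26.7%, 28.0% and 43.5% of the summed kinase FPKM in flow, against 50.2%, 47.0% and 53.8% in controls. Pdk3 made up 61.7%, 60.0% and 46.3% in flow, against 42.6%, 40.5% and 38.3% in controls. Pdk1 was thus the most abundant kinase transcript in each control and Pdk3 in each flow library, although in flow library 3 the 2 were close, at a Pdk1 to Pdk3 ratio of 0.939. Pdk2 and Pdk4 kept to 3.63% to 7.11% each in flow and 2.92% to 6.32% in controls. These shares rest on the same Pdk1 values and are given as a description with no test. In the other deposited table Pdk1 made up 21.7% to 34.0% in flow, against 22.9%, 45.9% and 54.0% in non-flow controls 1 to 3, so there the groups overlapped.

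**Figure D4:**
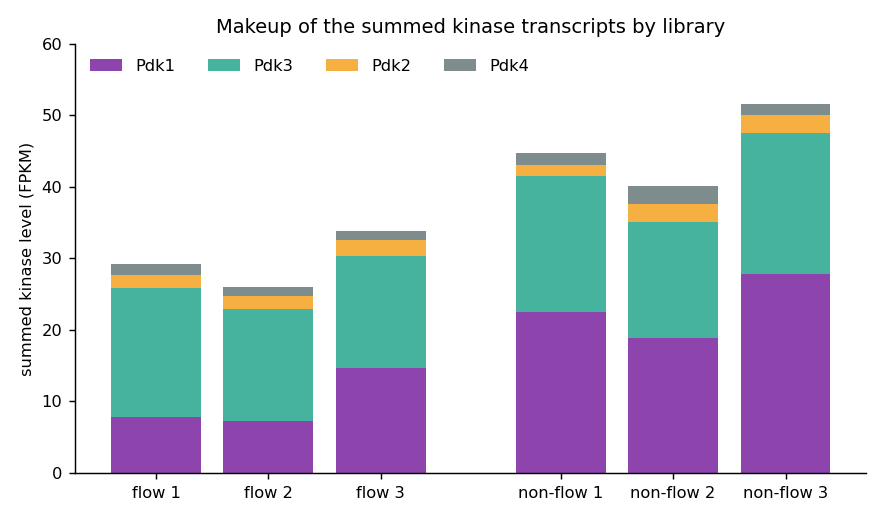
Summed FPKM of Pdk1 to Pdk4 in each library, stacked by gene, on a linear axis from 0. The Pdk1 segment is the lesser of the 2 main segments in all 3 flow libraries and the greater in all 3 controls, whereas the Pdk3 segment stays between 15.6 and 19.8 FPKM.

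Pdp1 (ENSMUSG00000049225, chromosome 4, 11958184 to 11966452, minus strand) encodes the catalytic subunit of the calcium-sensitive phosphatase that reactivates the complex. It had 18.4, 11.2 and 7.19 FPKM in flow libraries 1 to 3, against 21.1, 13.2 and 9.25 FPKM in non-flow controls 1 to 3. The ranges of the groups overlapped, and libraries of the same group differed up to 2.56-fold in flow and 2.28-fold in controls. Each flow value was below the control of the adjacent title, at 0.873, 0.846 and 0.777 times its level, though no label pairs them. The means were 12.3 ± 5.69 and 14.5 ± 6.03 FPKM in flow and control libraries (SD, n = 3 each), with a log2 fold change of -0.24 (SE 0.40, 95% interval -1.20 to 0.71, limma adjusted p = 0.805). Of the 10 members Pdp1 had the largest SE. With adjacent titles as a replicate block its SE was 0.09 (adjusted p = 0.423, limma). Its sign turned without flow library 3 (0.06) and without non-flow control 1 (0.05).

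Pdp2 (ENSMUSG00000048371, chromosome 8, 104591451 to 104599026, plus strand), the second catalytic phosphatase subunit, had 1.82, 2.17 and 1.52 FPKM in flow, against 2.72, 2.98 and 1.77 FPKM in controls. Non-flow control 3 lay within the flow range. The log2 fold change was -0.29 (SE 0.21, 95% interval -0.80 to 0.22, limma adjusted p = 0.625). The summed phosphatase level was 20.2, 13.4 and 8.70 FPKM in flow, against 23.8, 16.2 and 11.03 FPKM in controls, mostly from Pdp1. Kinase over phosphatase FPKM was 1.45, 1.95 and 3.89 in flow, against 1.88, 2.48 and 4.68 in controls, and the groups overlapped. Set against the control of the adjacent title, the ratio was lower in every flow library, though no label pairs them. The kinase sum in this ratio includes Pdk1, so the ratio is not a separate result.

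The subunit genes Pdha1, Pdhb and Dlat were the most abundant members, and libraries of the same group differed in them at most 1.23-fold. The subunit gene Pdhx was lower, with a control mean of 22.5 FPKM against 23.0 FPKM for Pdk1, and differed up to 1.45-fold in flow. Pdha1 (ENSMUSG00000031299, chromosome X, 160122209 to 160138413, minus strand), the alpha subunit that the kinases phosphorylate, had 97.7, 97.7 and 83.9 FPKM in flow, against 88.0, 83.5 and 88.4 FPKM in controls. Flow libraries 1 and 2 were above every control, and flow library 3 was within their range. The log2 fold change was 0.10 (SE 0.09, 95% interval -0.13 to 0.33, limma adjusted p = 0.670). The deposited table places Pdha1 in a longer interval, from 159988433, that also holds Map3k15 on the other strand, whose exons cover 16.15% of the exon bases of Pdha1. Use of strand is not given in the sources used here, so reads in that stretch cannot be assigned, but Map3k15 was listed at 0.0501 to 0.175 FPKM in flow and 0.0400 to 0.0942 FPKM in controls. In the other deposited table all 3 flow values of Pdha1, at 93.0, 87.8 and 81.3 FPKM, were above the controls, at 71.5, 74.8 and 79.3 FPKM (log2 fold change 0.21, SE 0.11, limma adjusted p = 0.751). With the GC trend removed in the tested table the log2 fold change of Pdha1 was 0.00817.

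Pdhb (ENSMUSG00000021748, chromosome 14, 8165996 to 8173025, minus strand) encodes the beta subunit that pairs with Pdha1. It had 96.3, 100.9 and 86.2 FPKM in flow, against 84.3, 85.8 and 91.0 FPKM in controls, and again flow library 3 alone fell among the controls (log2 fold change 0.11, SE 0.09, 95% interval -0.11 to 0.34, limma adjusted p = 0.634). With the GC trend removed the log2 fold change of Pdhb was 0.0458. The 2 subunit genes were close to level in every library, at a Pdha1 to Pdhb ratio of 0.968 to 1.01 in flow and 0.971 to 1.04 in controls. Their mean levels were within the top 11.3% of tested genes. Of the 50-base stretches of Pdhb, 2.84% also occur in other genes.

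Dlat and Pdhx form the core on which the complex is built. Dlat (ENSMUSG00000000168, chromosome 9, 50634633 to 50659780, minus strand) encodes the acetyltransferase, to which the kinases bind. It had 55.4, 45.1 and 45.3 FPKM in flow, against 43.3, 46.2 and 47.2 FPKM in controls (log2 fold change 0.09, SE 0.11, 95% interval -0.18 to 0.35, limma adjusted p = 0.754). Flow library 1 lay above the rest, and the other flow values lay among the controls. Pdhx (ENSMUSG00000010914, chromosome 2, 103021075 to 103073513, minus strand) encodes the protein that anchors the third enzyme of the complex. It had 23.3, 17.5 and 25.5 FPKM in flow, against 20.9, 24.6 and 22.1 FPKM in controls (log2 fold change -0.04, SE 0.16, 95% interval -0.42 to 0.34, limma adjusted p = 0.932). Flow libraries 2 and 3 were the lowest and the highest of all 6. Taken over the 4 subunits, the 95% intervals reach from -0.42 to 0.35 on the log2 scale.

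On the FPKM scale the order of mean levels was Pdhb, Pdha1, Dlat, Pdhx, Pdk3, Pdp1, Pdk1, Pdk2, Pdp2 and Pdk4 in flow. In controls it was Pdhb, Pdha1, Dlat, Pdk1, Pdhx, Pdk3, Pdp1, Pdp2, Pdk2 and Pdk4. Pdhb and Pdha1 overlapped in both groups, and both lay above every value of Dlat, which lay above every value of all other members. In controls the Pdk1 range, 18.9 to 27.8 FPKM, overlapped both that of Pdhx, 20.9 to 24.6 FPKM, and that of Pdk3, 16.3 to 19.8 FPKM, while Pdhx and Pdk3 were apart. In flow the Pdk1 range, 7.30 to 14.7 FPKM, lay below those of Pdhx and Pdk3 and inside that of Pdp1. The wide Pdp1 range overlapped that of Pdk3 in both groups. Among Pdk2, Pdp2 and Pdk4, neighbours in the order overlapped in both groups. Summed kinase transcripts equalled 30.0%, 26.7% and 40.3% of the Pdha1 FPKM in flow libraries 1 to 3, against 50.9%, 48.0% and 58.4% in controls, a gap that again rests on Pdk1.

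Across the 6 libraries the genes with a pattern most like that of Pdk1, among 7385 with a mean of at least 10 FPKM, were Mex3d, Spsb2, Pkm, Gapdh and Gpi1, with Pearson r of 0.993 to 0.997 in log2(FPKM + 1). These values are descriptive, come from 6 points that include both groups, and 366 genes had r over 0.9. Pkm, Gapdh and Gpi1 encode glycolytic enzymes. The Gapdh value is uncertain, since mouse has many near-identical pseudogenes of it. Mex3d, the closest at 0.997, encodes an RNA-binding protein and had 12.6, 12.5 and 16.3 FPKM in flow, against 19.2, 17.8 and 19.9 FPKM in controls. Each of these 5 had its highest flow value in library 3, which follows from their being picked for likeness to Pdk1.

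None of the other genes of pyruvate handling passed the test over all genes in limma, higher or lower, and 0.0167% of all tested genes did. Of 14 genes that supply or use pyruvate, 12 were tested, 4 with a log2 fold change above 0 and 8 below, with a median of -0.18. At an unadjusted p under 0.05 there were 4 of 12, against 8.52% of all tested genes, and all 3 flow values lay below the controls in 3 of 12, against 8.0%, and above them in 2, against 7.12%. The 3 with the smallest p were Pkm, Ldha and Mpc2. Mpc2, a subunit of the carrier that takes pyruvate into mitochondria, had 39.6, 33.0 and 22.6 FPKM in flow, against 21.8, 19.9 and 17.1 FPKM in controls. All 3 flow values were above the controls, library 3 by little (log2 fold change 0.64, SE 0.21, limma adjusted p = 0.559). Its partner subunit Mpc1 had 63.5, 70.9 and 54.5 FPKM in flow, against 60.9, 62.3 and 58.7 FPKM in controls, and overlapped.

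Ldha, which reduces pyruvate to lactate, had 350.4, 321.1 and 470.1 FPKM in flow, against 547.0, 491.7 and 598.1 FPKM in controls, with no overlap (log2 fold change -0.53, SE 0.16, limma adjusted p = 0.559). Pkm, the pyruvate kinase that makes pyruvate, had 685.7, 656.2 and 853.6 FPKM in flow, against 991.4, 909.8 and 1019.9 FPKM in controls (log2 fold change -0.42, SE 0.12, adjusted p = 0.559). For Ldha and Pkm, as for Pdk1, flow library 3 lay nearest to the controls. For Pkm this follows from its being picked above for likeness to Pdk1. The lactate exporter gene Slc16a3 was scarce, at 0.468, 0.365 and 0.941 FPKM in flow and 2.24, 1.07 and 6.98 FPKM in controls, and is named because its groups did not overlap, a choice made after its values were seen. Slc16a1, a related carrier named for the same reason, had 99.6, 106.1 and 91.7 FPKM in flow, against 82.7, 89.8 and 88.3 FPKM in controls.

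Among other parts of the complex, Dld, the third enzyme, which it shares with related dehydrogenases, had 90.2, 91.9 and 68.0 FPKM in flow, against 68.7, 63.2 and 66.8 FPKM in controls. Flow libraries 1 and 2 stood above the controls and library 3 among them (log2 fold change 0.32, SE 0.14, limma adjusted p = 0.559). Pdpr, the regulatory subunit of the phosphatase, had 3.63, 4.64 and 3.69 FPKM in flow, against 5.01, 3.07 and 4.58 FPKM in controls. Pdha2, a testis form of the alpha subunit, was listed at 0 in 5 libraries and at 0.0259 FPKM in non-flow control 1.

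Of 15 genes for the cofactors thiamine and lipoate, 13 were tested, 5 above and 8 below 0, with a median log2 fold change of -0.04. Groups without overlap were found for 2 of 13, both lower in flow, against 15.1% of all tested genes in either direction. At an unadjusted p under 0.05 (limma) there was 1 of 13, against 8.52% of all tested genes. That 1 was Bola3, which helps to assemble the iron-sulfur clusters that lipoate synthesis needs, at 153.6, 146.0 and 163.7 FPKM in flow, against 189.3, 205.0 and 208.4 FPKM in controls (log2 fold change -0.38, SE 0.09, limma adjusted p = 0.559). Its groups did not overlap. Mecr, an enzyme of mitochondrial fatty acid synthesis, had 41.1, 43.9 and 44.4 FPKM in flow, against 45.8, 48.8 and 46.0 FPKM in controls, also without overlap (limma adjusted p = 0.613). Glrx5 had 67.5, 54.1 and 69.8 FPKM in flow, against 73.5, 65.7 and 73.8 FPKM in controls, with overlap (limma adjusted p = 0.634).

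Of 9 genes of the sister 2-oxo acid dehydrogenases 8 were tested, 3 above and 5 below 0, with a median of -0.09. Bckdk, the kinase that inactivates the branched-chain complex much as the kinases above do theirs, had 61.8, 64.8 and 71.4 FPKM in flow, against 78.5, 78.7 and 82.4 FPKM in controls. The groups did not overlap (log2 fold change -0.27, SE 0.09, limma adjusted p = 0.559), as in 1 of 8 genes here against 15.1% of all tested genes. It was also the 1 of 8 at an unadjusted p under 0.05 (limma), against 8.52% of all tested genes. Bckdhb and Ogdh, subunits of the branched-chain and oxoglutarate complexes, had log2 fold changes of 0.17 and -0.16 (adjusted p = 0.583 and 0.595, limma). Of 13 transcription factors and cofactors known to act on kinase genes, 10 were tested, 2 above and 8 below 0, with a median of -0.09. None of them had an unadjusted p under 0.05 (limma), against 8.52% of all tested genes, and in none did the groups stand apart, against 15.1%. Hif1a had 14.5, 18.1 and 18.3 FPKM in flow, against 18.6, 15.9 and 19.96 FPKM in controls (log2 fold change -0.09, SE 0.14, limma adjusted p = 0.782), and its partner Arnt had 28.4, 34.3 and 30.3 FPKM in flow, against 32.8, 36.8 and 35.9 FPKM in controls (adjusted p = 0.575). Esrra, a nuclear receptor known to act on Pdk4, had 16.1, 14.9 and 20.3 FPKM in flow, against 24.0, 17.2 and 18.2 FPKM in controls (limma adjusted p = 0.644).

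**Figure D5:**
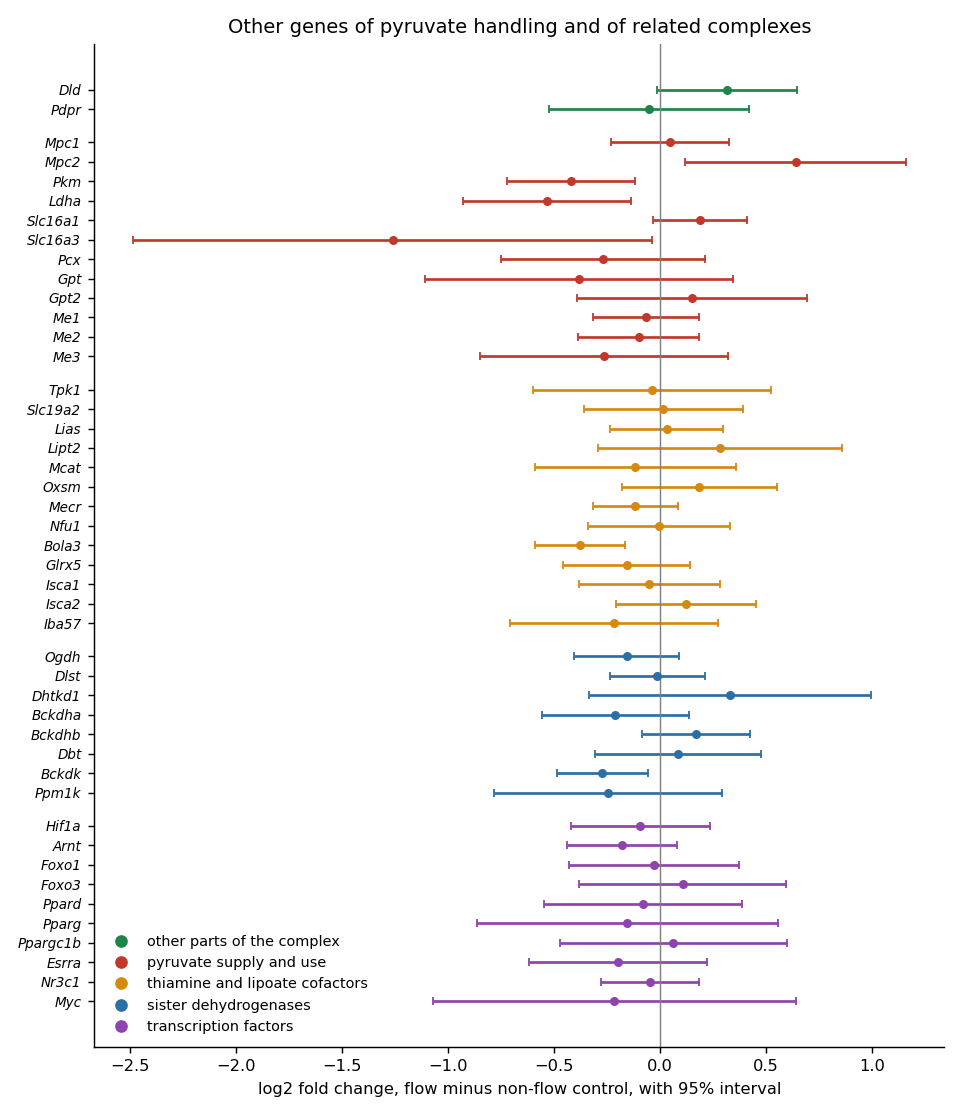
Log2 fold changes on the log2(FPKM + 1) scale, flow minus non-flow control, with 95% intervals from limma, for the tested genes of the 5 lists around the complex (colours). Intervals that leave out 0 are those of Mpc2 on the higher side and of Pkm, Ldha, Slc16a3, Bola3 and Bckdk on the lower side, and none of these passed over all genes.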

How the data were processed

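Single-end reads of 50 cycles were obtained from total RNA, and the software listed in the submitters' processing notes is Cufflinks 2.2.1, TopHat2 2.0.9 and CASAVA 1.8.2, with mm10 as the build. Neither the annotation nor any strand setting is given in the sources used here. The authors deposited 2 tables of FPKM with 1 column per library. The table whose 6 columns all name library titles was used for the tests, and the other, with 2 flow columns of no matching title, as an alternative. Neither holds counts.

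The test was limma 3.58.1 (R 4.3.3) on log2(FPKM + 1) of genes averaging 1 FPKM or more (eBayes with trend, two-sided, no covariate, Benjamini-Hochberg over all genes tested, threshold 0.05). Replicates were collected on separate days per the labels' protocols, and no label pairs them. An exact permutation test of 3 against 3 cannot go below 0.1 and was not run. Depth was taken from FPKM multiplied by transcript length minus 200 nt, in genes with 1 transcript. Lengths, GC content and overlaps came from GENCODE M21 on the same assembly, promoters from RefSeq (GRCm38.p6). Named were all members, the up to 3 genes of smallest p in each list around the complex, and the 5 most like Pdk1. The cell type markers that are named were picked outside this rule. Mpc1, Pdha2, Slc16a1 and Slc16a3 were named beyond this rule, after their values were seen. For 1 gene of these lists the result is not reported here, and it is left out of the list's counts. Members and lists were chosen with earlier results of these data known.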

Additional observations from a re-analysis of the deposited data

How the results depend on the processing

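In 22 alternatives the log2 fold change of Pdk1 stayed below 0, between -1.47 and -0.60, as did those of Pdk4 (-0.90 to -0.14) and Pdp2 (-0.45 to -0.14). Pdk1 was called in 1 of the 22, protein-coding genes with adjacent library titles as pairs (log2 fold change -1.18, SE 0.14, adjusted p = 0.0474, limma). With the GC trend removed as well it was not called, at -1.25 (SE 0.14, adjusted p = 0.0908). No other member was called in any. The 3 fits of protein-coding genes other than the unpaired one with the GC trend removed, and the other table less its shallowest library, were chosen after seeing the data. Adjacent titles were not taken as a pairing, because no label gives one. Pearson correlations of their deviations from the group means over genes were 0.02 to 0.06. Other pairs of a flow and a control library had -0.07 to 0.03, so the Pearson ranges overlapped and could not decide. Spearman correlations were 0.24 to 0.30 for adjacent titles and -0.22 to -0.08 for the other pairs. By Spearman each library was thus most like that of its adjacent title, a hint from the data and not the design. Deviations from a group mean cancel within the group, so low values for the other pairs partly follow from those for adjacent titles. With that replicate block over all genes the adjusted p of Pdk1 was 0.423, and Pdp1, at 0.873, 0.846 and 0.777 times the control of the adjacent title, had SE 0.09 in place of 0.40 (unadjusted p = 0.0497, adjusted p = 0.423, limma). In that fit 2 of 10 members, Pdk1 and Pdp1, and 1404 of 11957 genes had an unadjusted p under 0.05. Kinase over phosphatase FPKM was lower in flow in each of the 3 adjacent pairs, at 1.45 against 1.88, 1.95 against 2.48 and 3.89 against 4.68. That gap rests on the same Pdk1 values and is not a separate result.

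Signs turned as follows, with the cause not tested. With the GC trend removed, with or without pairs, Pdk2 had 0.0927. In the other deposited table Pdk2 had 0.13, Pdk3 0.25, Dlat -0.0824 and Pdhx 0.30, and without its shallowest library Pdk3 had 0.33, Dlat -0.0055 and Pdhx 0.0308. Without flow libraries 1 and 2 Pdk2 had 0.0334, Pdha1 -0.0459, Pdhb -0.0133, Dlat -0.00708 and Pdhx 0.17. Without any single library Pdp1 ranged from -0.56 to 0.0589, Dlat from -0.0106 to 0.14 and Pdhx from -0.14 to 0.11.

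The number of genes called, 2 as reported, was 4 with no filter or with a pseudocount of 0.1, and 0 in protein-coding genes, with or without the GC trend (limma, where 998 and 701 had an unadjusted p under 0.05). It was 1 with adjacent titles as pairs and 15 when protein-coding genes were paired. It was 17 in the other table without its shallowest library, 75 without flow libraries 1 and 2, and 9 to 24 without any single library. Genes with an unadjusted p under 0.05, 1019 as reported, numbered 1697 in paired protein-coding genes, 577 in the other table without its shallowest library, 525 without flow libraries 1 and 2, and 472 to 3088 (without flow library 3) without any single library. Of these, 443 were higher and 576 lower in flow as reported, and 532 were higher and 502 lower with quantile normalization. Depth limits Pdk2 and Pdk4 most, at about 22 and 24 reads in flow library 2.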
